A study of Mus musculus with 8 samples.

Results

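Gene expression was compared between blood stem cells taken straight from the mouse fetal liver and cells labelled as stem cells after a culture. The comparison used 5 of the 8 libraries of the series: 2 of FL-HSC and 3 of ex-HSC, chosen by their labels alone. The names abbreviate fetal liver (FL) and hematopoietic stem cell (HSC). FL-HSC libraries came from embryos at day 14.5, and ex-HSC libraries carry the stage in vitro with no embryonic day. The labels' protocols describe 4 days of culture in which embryonic cells were sorted, reaggregated with OP9, a mouse bone marrow stromal line, and fed with 100 ng/ml each of stem cell factor, IL-3 and Flt3L. That ex-HSC were sorted from this culture was read from their stage, and a culture on Akt-expressing endothelial cells is also mentioned without being tied to a library. All 5 libraries were on a C57BL/6J background and carry the cell type HSC, and none carries a mutation or a drug by its own labels. The mating notes name a reporter strain, Ly6a-GFP, beside wild type mice without saying which library came from which. The other 3 libraries, pre-HSC from embryonic day 11.5, took part only in estimating the spread and are quoted as levels where they help to place a value. Neither the sort gates nor the number of embryos or cultures behind a library are stated, so a p-value reflects no more than the spread among these libraries, which may be technical.

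Blood stem cells of the mouse embryo arise from the lining of the large arteries and then settle in the fetal liver, where they expand and where most red cells of the fetus are made. Their precursors can be brought to maturity outside the embryo when they are reaggregated with supporting stroma and cytokines. Stem cell factor acts through the receptor Kit, Flt3L through Flt3, and IL-3 through a receptor that contains the common beta chain. IL-3 and stem cell factor are also the classical growth factors of mast cells, the tissue cells that store histamine and proteases in granules.

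RNA was selected by its poly(A) tail, and each value is in FPKM, which divides a gene's fragments by its transcript length and by the total of fragments mapped. Sums of FPKM ran between 553227 and 745619, and 11682 to 11911 genes per library reached 1 FPKM. In ex-HSC replicate 2, 24992 genes were above 0, of which 13310 lay below 1 FPKM, whereas the other 4 libraries had between 15622 and 17661 genes above 0. Of 33504 genes in the table, 12433 reached 1 FPKM in 2 or more of the 5 libraries and were tested. Differences are of mean log2(FPKM + 1), FL-HSC minus ex-HSC, and are called log2 differences. They understate the change of genes with low values. A gene was called at a limma p-value under 0.05 after Benjamini-Hochberg adjustment over all tested genes, and log2 differences carry their standard error.

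The libraries of both groups differed over a large part of the measured genes. In FL-HSC 3373 genes were higher, which is 27.1% of those tested, and 1264 were lower, which is 10.2%. The libraries of the groups did not overlap at all for 7177 genes, or 57.7%. A lack of overlap in a gene named below is therefore common and adds little to its call. The typical gene was also higher in FL-HSC, with a median log2 difference of 0.31 over all tested genes, which bears on the medians of all gene groups below, as the shares of 27.1% and 10.2% bear on their counts. When the libraries were rescaled to a common median (median-of-ratios scaling), that median was -0.01, and 2513 genes (20.2%) were higher and 2524 (20.3%) lower. The higher genes were therefore 72.7% of all calls on the FPKM as deposited, 49.9% after rescaling, and 66.4% without ex-HSC replicate 2, the library with the lowest scaling factor (0.723, against 0.999 to 1.17 in the other 4). No gene was called in opposite directions by the original and the rescaled values, and 2513 higher and 1253 lower calls were shared. With 1 FL-HSC library left out, the calls dropped to 1847 higher and 962 lower without replicate 1, and to 1843 higher and 974 lower without replicate 2. The largest differences ran downward: 69 genes were lower by at least 4 on the log2 scale, against 23 higher by as much. The largest increases of all were of pseudogenes and predicted genes, whose values can rest on reads shared with other genes and which are taken up only in the closing observations.

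**Figure D1:**
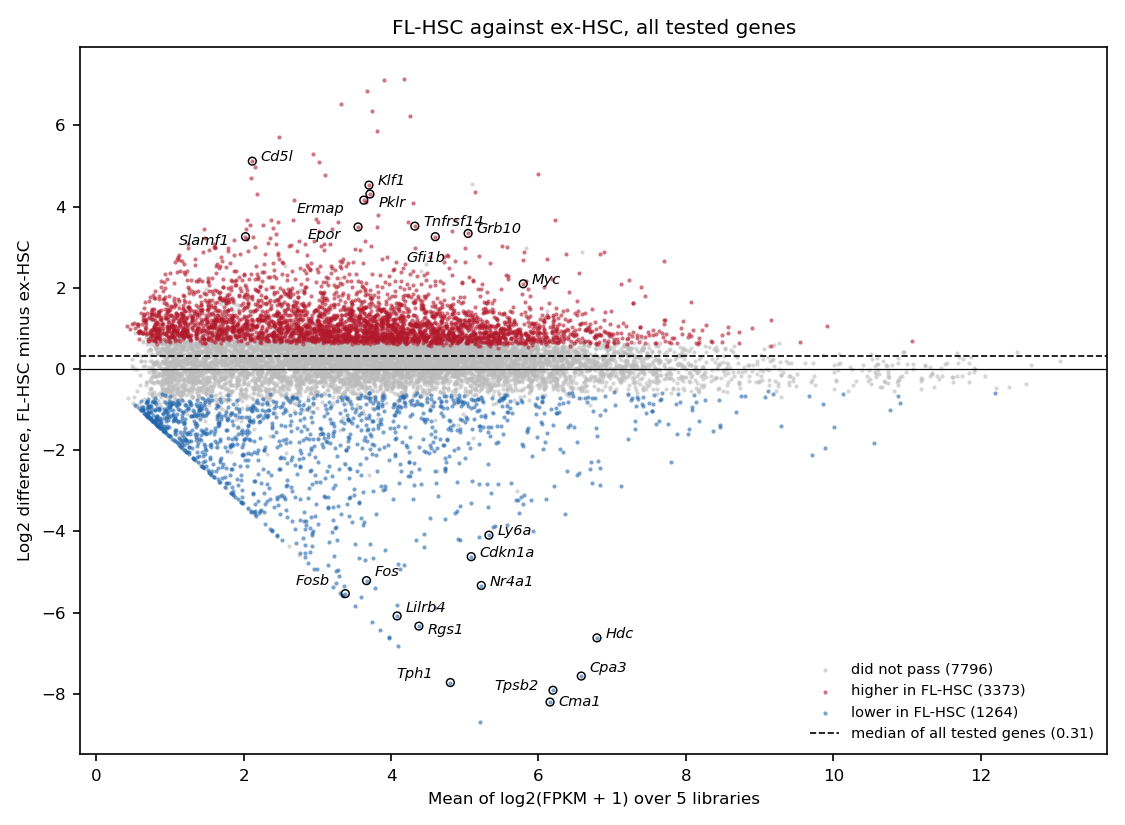
Log2 difference of every tested gene, FL-HSC minus ex-HSC (y axis), against the mean of log2(FPKM + 1) over the 5 libraries (x axis). Each point is a gene, coloured where it was higher (3373) or lower (1264) in FL-HSC, and the dashed line marks the median of all tested genes, 0.31. The named genes at the bottom are mast cell and immediate early genes, and those at the top are mostly red cell genes. The unnamed points above Cd5l are pseudogenes and predicted genes.

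Genes that mark or maintain blood stem cells were mostly higher in the fetal liver cells. Of the 54 genes on this list, 49 were tested, 37 were higher in FL-HSC and 4 were lower, with a median log2 difference of 1.31 against 0.31 over all tested genes. The higher ones were 75.5% of those tested, where 27.1% of all genes were higher. After rescaling, 32 were higher and 5 lower, with a median of 0.97 against -0.01 over all genes. Slamf1 encodes CD150, a surface receptor used to isolate stem cells, and stood at 13 and 16.8 FPKM in FL-HSC, against 1.38, 0.511 and 0.248 FPKM in ex-HSC (log2 difference 3.26 ± 0.30, adjusted p = 1.18e-05). The FL-HSC libraries were both far above all 3 cultured ones. Prdm16, a chromatin-bound regulator that stem cells need for their maintenance, was at 10.9 and 19.4 FPKM in FL-HSC, against 1.27, 0.669 and 0.942 FPKM in ex-HSC (log2 difference 3.0 ± 0.28, adjusted p = 1.24e-05). Mycn, a relative of Myc, was at 104 and 137 FPKM in FL-HSC, against 32.3, 10.7 and 18.8 FPKM in ex-HSC (log2 difference 2.61 ± 0.35, adjusted p = 0.000179). Of the ex-HSC libraries, replicate 2 was the lowest in Prdm16 and Mycn, and replicate 3 in Slamf1. Procr encodes the endothelial protein C receptor EPCR, another surface marker of stem cells, and its levels spread more, at 43.1 and 64.9 FPKM in FL-HSC, against 21.4, 4.24 and 17.9 FPKM in ex-HSC (log2 difference 2.05 ± 0.48, adjusted p = 0.00621).

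A few genes of this list went the other way, and the furthest was Ly6a, which encodes Sca-1, the surface protein by which adult mouse stem cells are commonly sorted. Its level was 3.9 and 9.99 FPKM in FL-HSC, against 152, 89.6 and 139 FPKM in ex-HSC, which is a difference of -4.09 ± 0.37 on the log2 scale (adjusted p = 9.72e-06). Abcb1b, a pump that expels drugs and dyes, was at 0.423 and 0.655 FPKM in FL-HSC, against 4.23, 4.52 and 4.02 FPKM in ex-HSC (log2 difference -1.77 ± 0.25, adjusted p = 0.000252). Mn1, a transcriptional coactivator linked to leukemia, was also lower, at 2.83 ± 0.108 FPKM in FL-HSC and 7.67 ± 2.25 FPKM in ex-HSC (SD, n = 2 and 3, adjusted p = 0.0058). Vldlr, a lipoprotein receptor, was the remaining lower one at 0.982 and 1.5 FPKM in FL-HSC, against 2.36, 3.02 and 2.27 FPKM in ex-HSC (adjusted p = 0.0445) and lost its call whichever of the 5 libraries was left out. Kit itself, the receptor of stem cell factor, overlapped between the groups at 104 and 130.0 FPKM in FL-HSC and 126, 54.9 and 82.5 FPKM in ex-HSC (log2 difference 0.48, adjusted p = 0.215), and without ex-HSC replicate 1 it passed as higher in FL-HSC. Cd34, a sialomucin of early blood cells and vessels, was lower at 125 and 116 FPKM in FL-HSC, against 293, 179.7 and 286 FPKM in ex-HSC (log2 difference -1.03 ± 0.24, adjusted p = 0.00535). Ptprc, the pan-leukocyte gene of CD45, was at 13.9 and 28.8 FPKM in FL-HSC, against 43.3, 30.1 and 44.3 FPKM in ex-HSC (adjusted p = 0.0399), a call that was lost without ex-HSC replicate 1, without ex-HSC replicate 3 or without FL-HSC replicate 1. Since the gates are not given, sorting on such proteins and a difference in expression cannot be told apart for these surface genes.

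Among general blood regulators more genes were higher in FL-HSC than lower on the FPKM as deposited. Of 18 pan-blood genes, 9 were higher and 2 lower, with a median of 0.60 against 0.31 over all genes, and after rescaling 6 were higher and 5 lower. The lower count fell to 1 without ex-HSC replicate 1, without ex-HSC replicate 3 or without FL-HSC replicate 1. Myb, a factor that keeps progenitors dividing, was at 113 and 134 FPKM in FL-HSC, against 30.6, 14.7 and 29.7 FPKM in ex-HSC (log2 difference 2.32 ± 0.30, adjusted p = 0.000154). Tal1, at the head of the blood program, was at 63.5 and 55 FPKM in FL-HSC, against 16.8, 9.78 and 11.2 FPKM in ex-HSC (log2 difference 2.18 ± 0.24, adjusted p = 4.63e-05), and its partner Lmo2 was at 336 and 399 FPKM in FL-HSC, against 110.4, 72.9 and 141 FPKM in ex-HSC (log2 difference 1.80 ± 0.26, adjusted p = 0.000299). Gfi1, a repressor that restrains stem cell division, was at 57.3 ± 17.1 FPKM in FL-HSC and 13.8 ± 7.7 FPKM in ex-HSC (SD, n = 2 and 3, adjusted p = 0.00206). In all 4 genes both FL-HSC values lay above all ex-HSC values, where 57.7% of all tested genes had no overlap in either direction. The actin regulator Coro1a, the most abundant gene of the list that did not pass, was at 514 and 425 FPKM in FL-HSC and 775, 604 and 924 FPKM in ex-HSC (adjusted p = 0.0903).

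**Figure D2:**
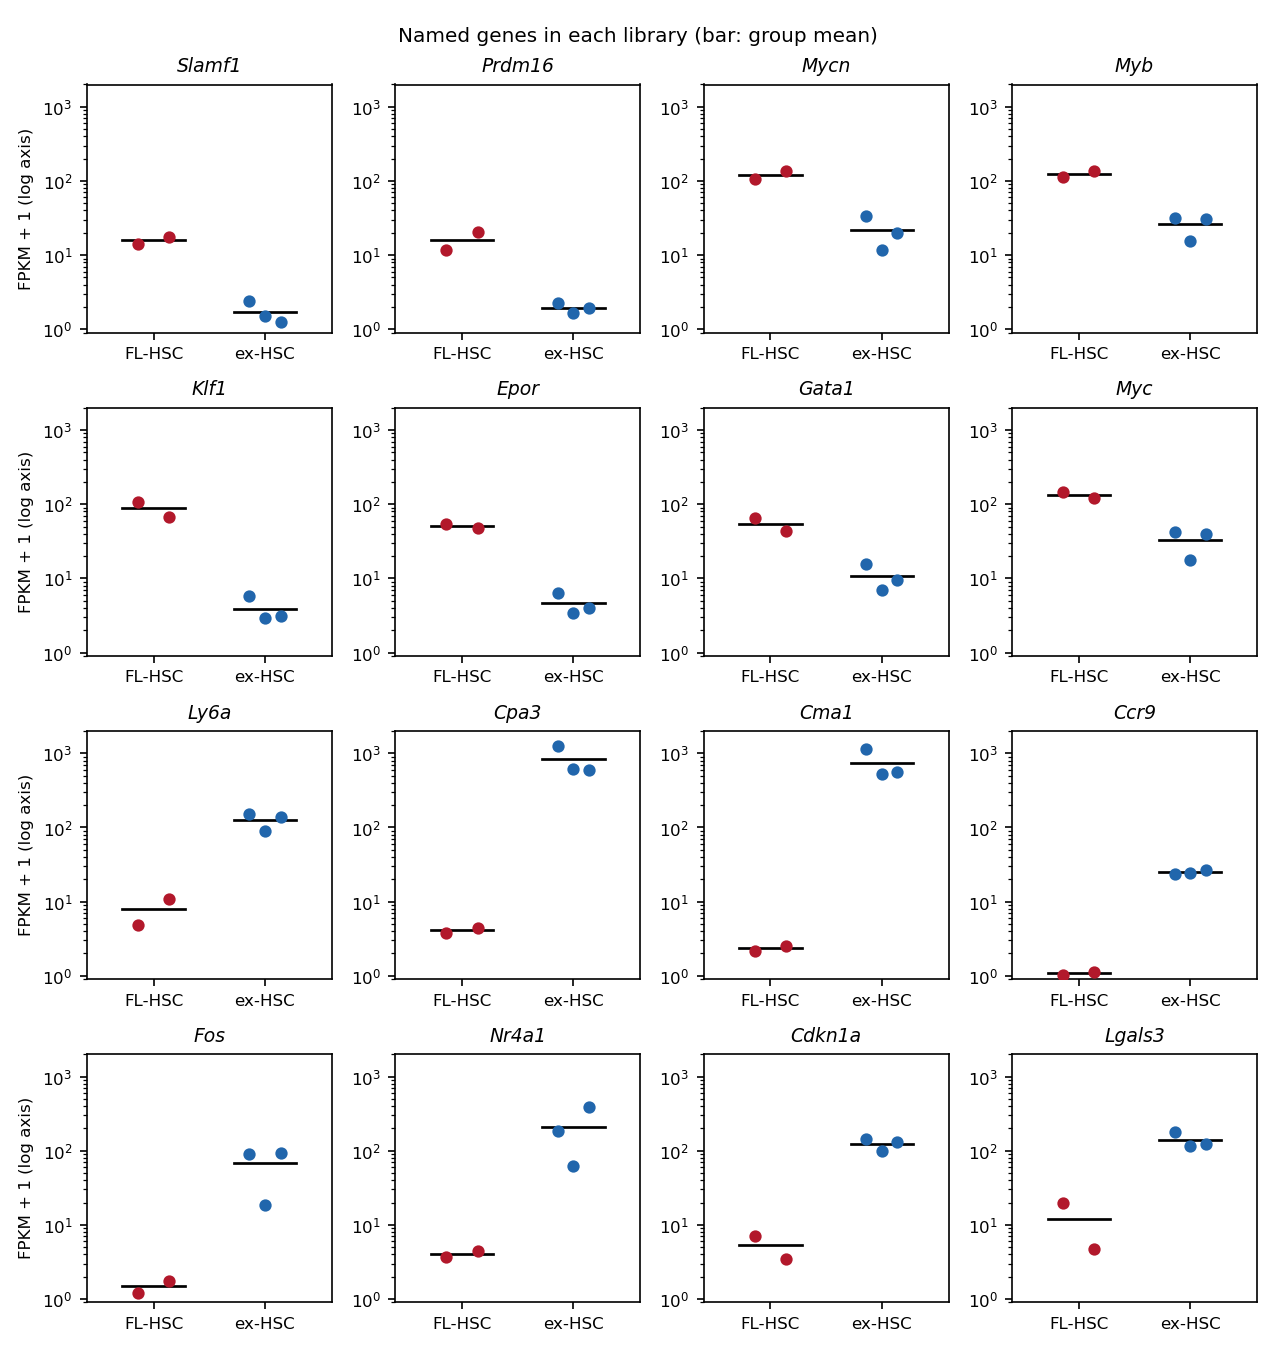
FPKM of 16 named genes in each library, on a log axis of FPKM + 1, with 2 FL-HSC libraries on the left of each panel and 3 ex-HSC libraries on the right. Each point is a library and the bar is the group mean. The stem cell and red cell genes Slamf1, Prdm16, Klf1 and Epor were high in FL-HSC, and Ly6a, Cpa3, Fos and Cdkn1a were high in ex-HSC.

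Most red cell genes were higher in the fetal liver cells, while no globin gene was. Of 28 erythroid genes, 20 were higher and 2 were lower, with a median of 1.62 (0.31 over all genes), and after rescaling 19 were higher and 3 lower. Klf1, the factor that opens the red cell program and adult globin transcription, was at 107 and 66.6 FPKM in FL-HSC, against 4.7, 1.9 and 2.08 FPKM in ex-HSC (log2 difference 4.53 ± 0.32, adjusted p = 1.56e-06). Its ex-HSC libraries were closer to pre-HSC, where it was at 0.837, 0.757 and 0.873 FPKM, than to FL-HSC. Epor, the erythropoietin receptor, was at 52.7 and 46.2 FPKM in FL-HSC, against 5.34, 2.42 and 3.04 FPKM in ex-HSC (log2 difference 3.50 ± 0.31, adjusted p = 7.49e-06). Gfi1b, a repressor required for red cells and platelets, was at 119 and 72.8 FPKM in FL-HSC, against 7.77, 8.82 and 9.99 FPKM in ex-HSC (log2 difference 3.26 ± 0.34, adjusted p = 2.66e-05). Gata1, the master factor of red cells, platelets and mast cells, was at 64.7 and 42.6 FPKM in FL-HSC, against 14.6, 6 and 8.43 FPKM in ex-HSC (log2 difference 2.41 ± 0.32, adjusted p = 0.000179). For these 4 regulators every FL-HSC value exceeded every ex-HSC value, and 57.7% of all tested genes had no overlap in either direction. Membrane genes moved with them: Ermap, a blood group antigen, was at 68.8 ± 2.39 FPKM in FL-HSC and 2.97 ± 0.816 FPKM in ex-HSC (SD, n = 2 and 3), and the water channel Aqp1 was at 59.1 ± 6.92 FPKM in FL-HSC and 4.37 ± 1.02 FPKM in ex-HSC (adjusted p = 4.42e-07 and 1.16e-06). Cpox, an enzyme of heme synthesis, was at 120.1 and 111 FPKM in FL-HSC, against 21.5, 11.9 and 15.9 FPKM in ex-HSC (log2 difference 2.78 ± 0.25, adjusted p = 8.08e-06). Rhd, which encodes a blood group protein, was at 37.6 and 28 FPKM in FL-HSC, against 4.44, 3.27 and 5.59 FPKM in ex-HSC (log2 difference 2.64 ± 0.26, adjusted p = 1.63e-05). Cpox and Rhd were picked after their values were seen.

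The adult alpha globin Hba-a2 was lower at 17.5 and 2.82 FPKM in FL-HSC, against 29.7, 35 and 21.3 FPKM in ex-HSC (log2 difference -1.79 ± 0.50, adjusted p = 0.0152), a call lost without ex-HSC replicate 2 and also without FL-HSC replicate 2. Its values are uncertain because reads shared with the near-identical Hba-a1 could be split between them. Tfrc, the transferrin receptor that brings in iron, was lower at 28.1 and 62.6 FPKM in FL-HSC, against 101, 71.8 and 99.4 FPKM in ex-HSC (log2 difference -1.07 ± 0.32, adjusted p = 0.0194), and this call was lost without ex-HSC replicate 1 and also without FL-HSC replicate 1. The count of lower erythroid genes was 1 without ex-HSC replicate 1, without ex-HSC replicate 2 or without FL-HSC replicate 2. Car2, a carbonic anhydrase of red cells and their precursors, had 264 and 260.5 FPKM in FL-HSC and 183, 119 and 215 FPKM in ex-HSC and did not pass (adjusted p = 0.0574), although it passed as higher without ex-HSC replicate 3. Of the 3 embryonic and fetal globin genes tested, limma called 0, also 0 at an unadjusted p under 0.05. Hbb-y, an embryonic globin, stood at 46 and 5.71 FPKM in FL-HSC and 9.02, 12.9 and 11.6 FPKM in ex-HSC (log2 difference 0.56, adjusted p = 0.467), with FL-HSC replicate 1 above all ex-HSC libraries and replicate 2 below them. It passed as higher without FL-HSC replicate 2, and its sign turned without FL-HSC replicate 1. Outside the list, several of the 15 largest increases are known from red cells too. Pklr, the pyruvate kinase of liver and red cells, was at 86.8 and 69.7 FPKM in FL-HSC, against 3.79, 2.08 and 3.24 FPKM in ex-HSC (log2 difference 4.31 ± 0.26, adjusted p = 4.26e-07). Tspo2, a membrane protein of erythroblasts, was at 28.9 and 13.7 FPKM in FL-HSC, against 1.46, 0.55 and 0.51 FPKM in ex-HSC (log2 difference 3.55 ± 0.32, adjusted p = 1.06e-05), and Mfsd2b, which exports sphingosine phosphate from red cells and platelets, was at 34.5 and 30.5 FPKM in FL-HSC, against 3.09, 1.8 and 1.75 FPKM in ex-HSC (log2 difference 3.40 ± 0.28, adjusted p = 4.5e-06).

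Mast cell genes gave the largest decreases among protein-coding genes and were mostly lower in the fetal liver cells. Of 25 mast cell and basophil genes, 20 were lower and 1 was higher, with a median of -2.81 (0.31 over all genes), and after rescaling 21 were lower. The lower ones were 80% of those tested, where 10.2% of all genes were lower. The higher one was Gata1, described above, and without ex-HSC replicate 1 there were 2 higher, with Kit. Cma1, the chymase of connective tissue mast cells, was at 1.17 and 1.56 FPKM in FL-HSC, against 1135, 527 and 554 FPKM in ex-HSC (log2 difference -8.20 ± 0.32, adjusted p = 2.12e-08). Cpa3, the mast cell carboxypeptidase, was at 2.83 and 3.44 FPKM in FL-HSC, against 1264, 617 and 603 FPKM in ex-HSC (log2 difference -7.56 ± 0.54, adjusted p = 1.67e-06). Tpsb2, a tryptase, was at 2.23 and 1.32 FPKM in FL-HSC, against 1004, 534 and 526 FPKM in ex-HSC (log2 difference -7.91 ± 0.29, adjusted p = 1.54e-08), with the reservation that tryptase genes share sequence. The cultured libraries carried these proteases at over 500 FPKM and the fetal liver libraries at under 5 FPKM. Hdc makes histamine and was at 5.98 and 6.14 FPKM in FL-HSC, against 1219, 468 and 588 FPKM in ex-HSC (log2 difference -6.62 ± 0.40, adjusted p = 4.26e-07). Tph1 makes the serotonin precursor and was at 0.269 and 0 FPKM in FL-HSC, against 399, 170.4 and 195 FPKM in ex-HSC (log2 difference -7.72 ± 0.36, adjusted p = 7.77e-08). Gzmb, a granzyme of killer lymphocytes and mast cells, was listed at 0 and 0 in FL-HSC, against 192, 108 and 67.8 FPKM in ex-HSC (adjusted p = 4.22e-07). The protease Mcpt2 was also listed at 0 and 0 in FL-HSC, against 76.7, 43.9 and 30.6 FPKM in ex-HSC (adjusted p = 4.18e-07). The tryptase Tpsg1 was listed at 0 and 0 in FL-HSC, against 83.3, 43.6 and 49.4 FPKM in ex-HSC (adjusted p = 9.48e-08).

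In ex-HSC these RNAs were highest in replicate 1. Summed over the list, mast cell and basophil genes came to 765 and 786 FPKM in FL-HSC, 4191 to 8761 FPKM in ex-HSC, and 251 to 399 FPKM in pre-HSC. Without ex-HSC replicate 1, 19 members were still lower, with a median of -2.78. In bulk RNA, fewer cells of a type and less RNA per cell cannot be told apart, here and for every cell type named below. Slc18a2, the transporter that loads amines into granules, overlapped between the groups at 10.6 and 18.4 FPKM in FL-HSC and 37.2, 13.8 and 14.6 FPKM in ex-HSC (log2 difference -0.46, adjusted p = 0.354).

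The stretch before the start of several of these genes holds the core letters bound by GATA factors, AGATAA on either strand. RefSeq promoters on GRCm38.p6 were matched by symbol for 16 of the 20 lower mast cell genes, as 19 promoters, and for 8926 of all tested genes, as 11424 promoters. In the 250 bases before the start, AGATAA was found in 7 of the 19, or 36.8%, and in 6.34% of the promoters of all tested genes. Of the promoters of red cell genes that were higher in FL-HSC, 15 were found and 2 held it, or 13.3%. The last 120 bases before the start are shown for 5 mast cell genes that were lower in FL-HSC and for 2 red cell genes that were higher, with the matching letters in capitals (TTATCT is the same motif on the other strand), because both groups hold the motif and differ in opposite directions.
Cpa3 (chr3:20242182-20242301, minus strand): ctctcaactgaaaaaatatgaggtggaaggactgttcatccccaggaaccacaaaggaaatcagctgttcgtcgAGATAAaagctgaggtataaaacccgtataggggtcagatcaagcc
Cd200r3 (chr16:44943558-44943677, plus strand): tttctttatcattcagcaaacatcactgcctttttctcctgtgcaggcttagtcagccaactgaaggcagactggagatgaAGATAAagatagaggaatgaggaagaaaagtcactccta
Fcer1a (chr1:173227230-173227349, minus strand): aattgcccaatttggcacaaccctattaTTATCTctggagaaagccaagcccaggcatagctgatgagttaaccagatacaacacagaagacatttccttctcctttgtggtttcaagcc
Ms4a2 (chr19:11623720-11623839, minus strand): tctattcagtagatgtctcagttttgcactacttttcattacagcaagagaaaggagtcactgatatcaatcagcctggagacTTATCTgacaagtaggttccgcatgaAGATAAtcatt
Prss34 (chr17:25298274-25298393, plus strand): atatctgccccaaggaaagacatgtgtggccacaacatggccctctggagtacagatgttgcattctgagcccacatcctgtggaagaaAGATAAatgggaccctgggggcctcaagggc
Epor (chr9:21963577-21963696, minus strand): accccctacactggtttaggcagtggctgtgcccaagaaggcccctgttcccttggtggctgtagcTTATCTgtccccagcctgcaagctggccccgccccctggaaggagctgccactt
Rhd (chr4:134864416-134864535, plus strand): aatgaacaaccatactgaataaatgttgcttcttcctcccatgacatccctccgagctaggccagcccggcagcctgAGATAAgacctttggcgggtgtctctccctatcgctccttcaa
The capitals are letters found by search, not sites shown to be bound. Ms4a2 and Fcer1a encode the beta and alpha chains of the high-affinity IgE receptor, Cd200r3 an activating receptor of mast cells and basophils, and Prss34 a protease of both. Ms4a2 was at 0.607 and 0.397 FPKM in FL-HSC, against 3.52, 1.58 and 2.22 FPKM in ex-HSC (log2 difference -1.16 ± 0.28, adjusted p = 0.00761), and Cd200r3 was at 1.21 and 0.563 FPKM in FL-HSC, against 42.1, 21.1 and 22 FPKM in ex-HSC (log2 difference -3.91 ± 0.31, adjusted p = 3.6e-06). Fcer1a was listed at 0 and 0 in FL-HSC, against 8.27, 3.96 and 3.82 FPKM in ex-HSC (adjusted p = 4.99e-05). Prss34 was the lowest of the 5, at 0.25 and 0 FPKM in FL-HSC, against 1.04, 0.874 and 1.39 FPKM in ex-HSC (log2 difference -0.90 ± 0.23, adjusted p = 0.0105). The calls of Ms4a2 and Prss34 were lost without FL-HSC replicate 2, and these genes were picked for their promoters after their values were seen. The other motifs searched were CCNCNCCC, TGACGTCA, TATAAA, TCACNCCAC and CCAAT, on either strand and with N for any base. In the same mast cell promoters they were found in 26.3%, 0, 26.3%, 0 and 15.8%, against 63.0%, 2.55%, 6.3%, 0.972% and 35.4% over all tested genes.

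**Figure D3:**
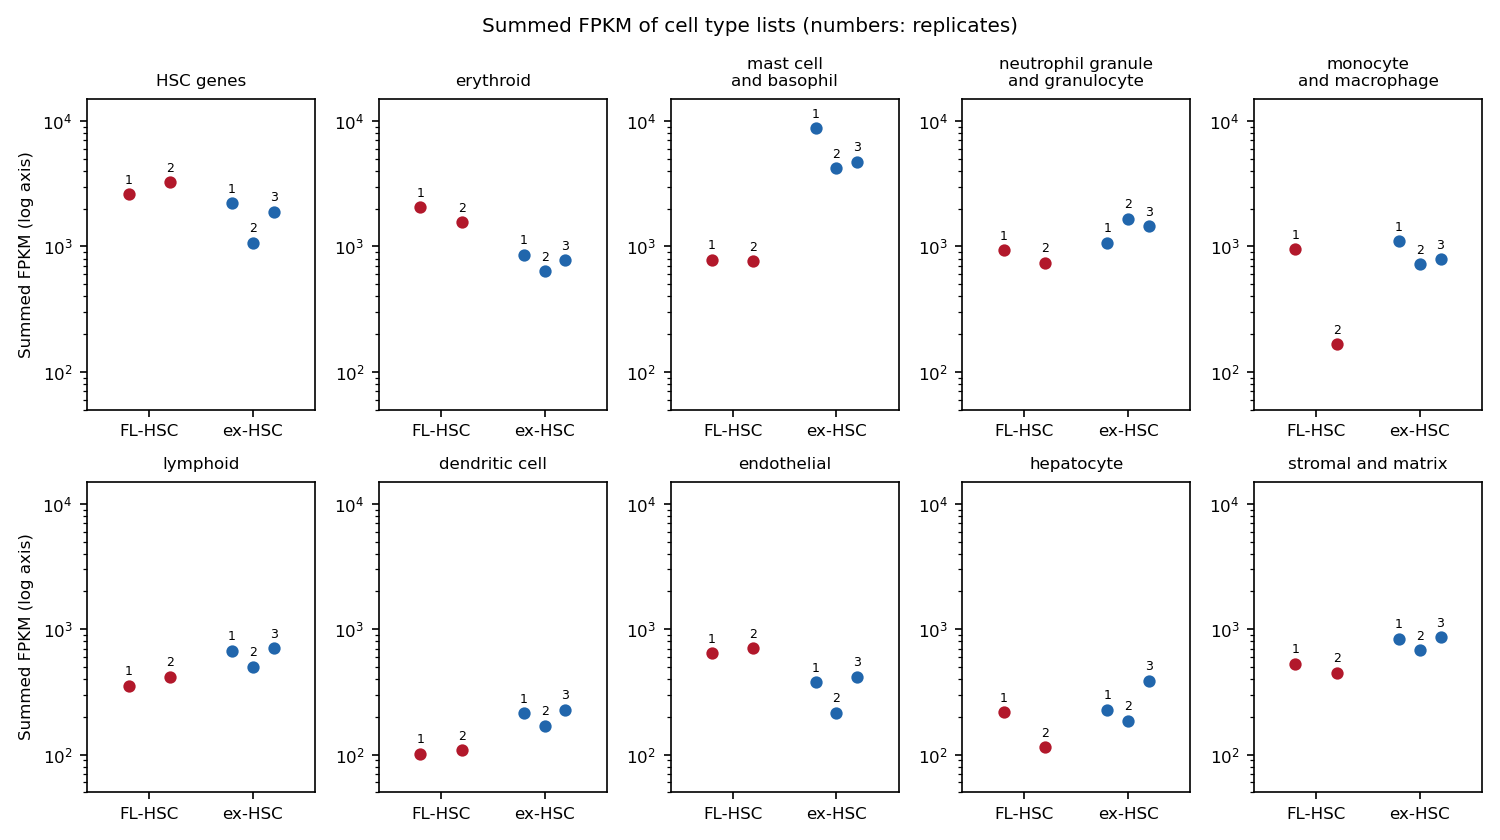
Summed FPKM of 10 cell type gene lists in each library (log axis), FL-HSC on the left and ex-HSC on the right of each panel, with 1 point per library. Mast cell sums are 765 and 786 in FL-HSC and at least 4191 in ex-HSC, and the monocyte and macrophage sums of the FL-HSC libraries, 166 and 946, are the furthest apart of the pair. In ex-HSC most of the monocyte and macrophage sum is of Tyrobp and Fcer1g, which other myeloid cells express too.

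Neutrophil genes went both ways, with more of them lower in the fetal liver cells and a higher share below the 27.1% of all tested genes. Of 30 genes, 28 were tested, 5 were higher and 16 lower in FL-HSC, with a median of -1.07. Mpo, the peroxidase of the early granules that progenitors already express, was at 190.0 and 160.0 FPKM in FL-HSC, against 72.1, 71.8 and 92.6 FPKM in ex-HSC (log2 difference 1.15 ± 0.22, adjusted p = 0.00218). Csf3r, the receptor of granulocyte colony-stimulating factor, was at 18.4 and 19.3 FPKM in FL-HSC, against 7.85, 5.07 and 8.15 FPKM in ex-HSC (log2 difference 1.33 ± 0.26, adjusted p = 0.00225), and Padi4, which converts histone arginines, was at 3.26 and 4.61 FPKM in FL-HSC, against 1.28, 0.706 and 0.452 FPKM in ex-HSC (log2 difference 1.46 ± 0.26, adjusted p = 0.00124). The largest decreases were of Mmp8, Stfa2, Ngp and Lcn2. Ngp, a granule protein, was at 4.68 and 1.66 FPKM in FL-HSC, against 25.2, 42.7 and 25.3 FPKM in ex-HSC (log2 difference -3.0 ± 0.38, adjusted p = 0.000117). Lcn2, a bacterial iron trap, was at 4.13 and 0.314 FPKM in FL-HSC, against 12.7, 21.4 and 16.9 FPKM in ex-HSC (log2 difference -2.77 ± 0.44, adjusted p = 0.000607). Mmp8, the neutrophil collagenase, was listed at 0 and 0 in FL-HSC, against 7.19, 9.07 and 10.6 FPKM in ex-HSC (adjusted p = 1.93e-06). Ngp and Lcn2 were highest in ex-HSC replicate 2, and the lower count of the list was 12 without that library. Stfa1 and Stfa2, cystatin-type protease inhibitors with close copies, were lower as well (adjusted p = 0.00286 and 1.08e-05). The elastase-like protease Prtn3 did not pass at 127 and 114 FPKM in FL-HSC and 149.8, 161 and 197 FPKM in ex-HSC (adjusted p = 0.0887).

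Eosinophil genes were few and mostly low, and some of their calls depended on ex-HSC replicate 2. Of 10 genes 6 were tested, and 4 were higher and 0 lower in FL-HSC (also 0 lower at an unadjusted p under 0.05 with limma), but 2 were higher without ex-HSC replicate 2. With either FL-HSC library left out only 4 were tested, because Epx and Prg3 reached 1 FPKM in no ex-HSC library. Those fits therefore say nothing on these genes. Epx, the eosinophil peroxidase, was at 3.79 and 2.23 FPKM in FL-HSC, against 0.487, 0.71 and 0.54 FPKM in ex-HSC (log2 difference 1.32 ± 0.24, adjusted p = 0.00155). Prg3, a granule protein, was at 2.98 and 2.57 FPKM in FL-HSC, against 0.966, 0.167 and 0.443 FPKM in ex-HSC (log2 difference 1.34 ± 0.26, adjusted p = 0.00209).

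The FL-HSC libraries differed from each other in macrophage genes, with replicate 1 above replicate 2 in their summed level. Of 22 tested monocyte and macrophage genes, 4 were higher and 5 lower, with a median of -0.25 that was -0.57 after rescaling. Without FL-HSC replicate 1 there was 1 higher and there were 8 lower, and without FL-HSC replicate 2 there were 3 higher and 3 lower. Cd5l, a survival factor secreted by tissue macrophages, was at 90.7 and 13.6 FPKM in FL-HSC, against 0, 0.151 and 0 FPKM in ex-HSC (log2 difference 5.12 ± 0.54, adjusted p = 3.04e-05). Marco, a scavenger receptor of macrophages, was at 48.4 and 8.36 FPKM in FL-HSC, against 1.33, 1.52 and 2.17 FPKM in ex-HSC (log2 difference 3.02 ± 0.52, adjusted p = 0.000935). Both were above ex-HSC in each FL-HSC library, the second by a smaller margin in replicate 2. Vcam1, an adhesion molecule of the macrophages at the core of erythroblast islands and of vessels, was at 19.2 and 2.9 FPKM in FL-HSC, against 1.51, 1.27 and 0.916 FPKM in ex-HSC (log2 difference 2.0 ± 0.50, adjusted p = 0.00891) and lost its call without FL-HSC replicate 1. Tyrobp and Fcer1g, which other myeloid cells express too, were lower in FL-HSC. Tyrobp, an adaptor of activating receptors, was at 74.2 and 22.3 FPKM in FL-HSC, against 358, 262 and 316 FPKM in ex-HSC (log2 difference -2.89 ± 0.58, adjusted p = 0.00246). Fcer1g, the shared gamma chain of Fc receptors, was at 50.1 and 20.3 FPKM in FL-HSC, against 353, 172 and 198 FPKM in ex-HSC (log2 difference -2.80 ± 0.58, adjusted p = 0.00291).

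Liver cell genes were also followed, since the fetal liver is largely made of hepatoblasts and blood cells. Of 27 hepatocyte genes only 8 passed the filter for testing, and 3 were higher and 1 lower in FL-HSC, with a median of 1.19. With either FL-HSC library left out only 5 were tested, with a median of -0.2 without replicate 1 and 1.85 without replicate 2. Alb and Hnf4a reached 1 FPKM in no ex-HSC library and could not be tested there. Alb, the albumin gene and one of the most abundant RNAs of hepatocytes, was at 10.8 and 2.7 FPKM in FL-HSC, against 0, 0.00886 and 0 FPKM in ex-HSC (log2 difference 2.72 ± 0.44, adjusted p = 0.000611). Hnf4a, a hepatocyte factor, was at 7.45 and 5.39 FPKM in FL-HSC, against 0.229, 0.332 and 0.183 FPKM in ex-HSC (log2 difference 2.56 ± 0.25, adjusted p = 1.61e-05). Summed over the list, hepatocyte genes came to 115 and 219 FPKM in FL-HSC, 187 to 388 FPKM in ex-HSC and 151 to 243 FPKM in pre-HSC, and 3 members were listed at 0 in both FL-HSC libraries and 4 in all ex-HSC libraries. Dlk1, a surface protein of hepatoblasts, had the highest mean of the list. It was lower at 101 and 84.4 FPKM in FL-HSC, against 196, 158 and 364 FPKM in ex-HSC, a call lost without FL-HSC replicate 2. Dlk1 alone made up most of the sum in every ex-HSC library and in FL-HSC replicate 2. The sums there therefore mainly reflect Dlk1 and not the other members. Macrophage genes summed to 946 FPKM in FL-HSC replicate 1, 166 FPKM in FL-HSC replicate 2, 718 to 1096 FPKM in ex-HSC and 490.3 to 2451 FPKM in pre-HSC. Tyrobp and Fcer1g, which other myeloid cells express too, made up most of this sum in each ex-HSC library. In each FL-HSC and pre-HSC library they were a minor part of it. The part that such RNA has in other differences was not tested.

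Genes of lymphoid and dendritic cells that passed the filter were mostly lower in the fetal liver cells. Of 31 lymphoid genes 21 were tested, 15 were lower and 3 higher, with a median of -1.47. Without the filter all 31 were tested, 13 were lower and 3 higher, and the median was -0.31. Cd7 and Ccr9, below, passed the filter through ex-HSC alone and so could not come out higher. Cd7, an early marker of T and natural killer progenitors, was at 0 and 0.115 FPKM in FL-HSC, against 38.6, 39.5 and 42.3 FPKM in ex-HSC (log2 difference -5.28 ± 0.25, adjusted p = 7.77e-08). Ccr9, the receptor that guides progenitors to the thymus, was at 0.031 and 0.139 FPKM in FL-HSC, against 22.8, 23.6 and 25.4 FPKM in ex-HSC (log2 difference -4.52 ± 0.22, adjusted p = 1.3e-07). In both genes the 3 ex-HSC libraries lay close together and the fetal liver libraries were near 0. Gzma, a granzyme of killer lymphocytes, was at 1.54 and 0.437 FPKM in FL-HSC, against 36.6, 29.8 and 45.5 FPKM in ex-HSC (log2 difference -4.30 ± 0.29, adjusted p = 9.17e-07). Tcf7, a Notch-responsive factor of T cell commitment, was at 1.42 and 0.581 FPKM in FL-HSC, against 17.1, 13.7 and 19.9 FPKM in ex-HSC (log2 difference -3.18 ± 0.27, adjusted p = 5.65e-06), and Ighm, the mu heavy chain that progenitors transcribe before rearrangement, was at 2.65 and 3.44 FPKM in FL-HSC, against 64, 60.2 and 76.7 FPKM in ex-HSC (log2 difference -4.07 ± 0.56, adjusted p = 0.000213). Higher instead was Bcl11a, needed for B cells and for silencing embryonic globin, at 66.7 and 75.2 FPKM in FL-HSC, against 36.8, 20.4 and 35.5 FPKM in ex-HSC (log2 difference 1.22 ± 0.26, adjusted p = 0.0035). Ikzf1, which encodes Ikaros, was at 126 and 176 FPKM in FL-HSC, against 76.1, 49.8 and 86 FPKM in ex-HSC (log2 difference 1.10 ± 0.25, adjusted p = 0.00552) and lost its call without FL-HSC replicate 2. Cd79b, a signalling chain of the B cell receptor, was at 22.6 and 16.6 FPKM in FL-HSC, against 8.2, 4.83 and 9.6 FPKM in ex-HSC (log2 difference 1.3 ± 0.32, adjusted p = 0.00746) and lost its call without FL-HSC replicate 1.

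Among 13 tested dendritic cell genes of 20, 11 were lower and 2 were higher, with a median of -1.79. Without the filter 11 of 19 were lower and 1 higher, with a median of -1.44. Cd83, Irf4 and Klrd1, below, passed the filter through ex-HSC alone. Without ex-HSC replicate 3, or without either FL-HSC library, 1 was higher. Cd83, a surface protein of mature dendritic cells, was at 0.754 and 0.112 FPKM in FL-HSC, against 21.8, 23.5 and 22.6 FPKM in ex-HSC (log2 difference -4.08 ± 0.62, adjusted p = 0.000425). Irf4, a factor of dendritic and activated lymphoid cells, was at 0.433 and 0.464 FPKM in FL-HSC, against 12.6, 8.43 and 17.4 FPKM in ex-HSC (log2 difference -3.20 ± 0.29, adjusted p = 8.99e-06). Klrd1, the natural killer receptor CD94, was listed at 0 and 0 in FL-HSC, against 13, 17.8 and 18.1 FPKM in ex-HSC (adjusted p = 3.96e-07). Fscn1, an actin bundler of dendritic cells that other cells also use, was higher at 73.5 and 76 FPKM in FL-HSC, against 25.4, 15.8 and 31 FPKM in ex-HSC (log2 difference 1.65 ± 0.25, adjusted p = 0.000479).

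Immediate early genes, which are switched on within minutes of a signal, were almost uniformly lower in the fetal liver cells. Of 31 such genes 30 were tested, 28 were lower and 1 was higher, with a median of -2.84 (0.31 over all genes) that was -3.17 after rescaling. The lower ones were 93.3% of those tested. The counts were 28 lower and 1 higher with each library of the 5 left out in turn, too. Fos was at 0.213 and 0.741 FPKM in FL-HSC, against 89.7, 17.5 and 92.4 FPKM in ex-HSC (log2 difference -5.21 ± 0.56, adjusted p = 3.48e-05). Fosb, its close relative, was at 0.0376 and 0.0483 FPKM in FL-HSC, against 51.6, 18.4 and 109 FPKM in ex-HSC (log2 difference -5.53 ± 0.54, adjusted p = 1.65e-05). Both form the AP-1 factor with Jun proteins, and both were near 0 in the fetal liver libraries. Nr4a1, an orphan receptor induced by signalling, was at 2.69 and 3.49 FPKM in FL-HSC, against 183, 60.7 and 387 FPKM in ex-HSC (log2 difference -5.33 ± 0.54, adjusted p = 2.02e-05). Atf3, a stress-induced factor, was at 0.696 and 0.122 FPKM in FL-HSC, against 28.2, 17.6 and 68.5 FPKM in ex-HSC (log2 difference -4.60 ± 0.50, adjusted p = 3.69e-05). Rgs1, which dampens chemokine receptor signals, was at 0.343 and 0.653 FPKM in FL-HSC, against 183, 72.7 and 128 FPKM in ex-HSC (log2 difference -6.33 ± 0.50, adjusted p = 3.11e-06). In ex-HSC, replicate 2 was the lowest library for each of these 5 genes. The pre-HSC libraries were not low either: Fos was at 140.2, 96.5 and 177 FPKM, Fosb at 41.5, 31.5 and 64.9 FPKM and Nr4a1 at 70.6, 65.5 and 88 FPKM there. Myc, the growth regulator, was the gene that was higher, at 144 and 121 FPKM in FL-HSC, against 41.4, 16.8 and 38.3 FPKM in ex-HSC (log2 difference 2.10 ± 0.33, adjusted p = 0.00051). CCNCNCCC was found in 82.1% of 28 promoters of the lower immediate early genes, against 63.0% over all tested genes, and TGACGTCA, the letters bound by CREB and its kin, in 7.14% against 2.55%.

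**Figure D4:**
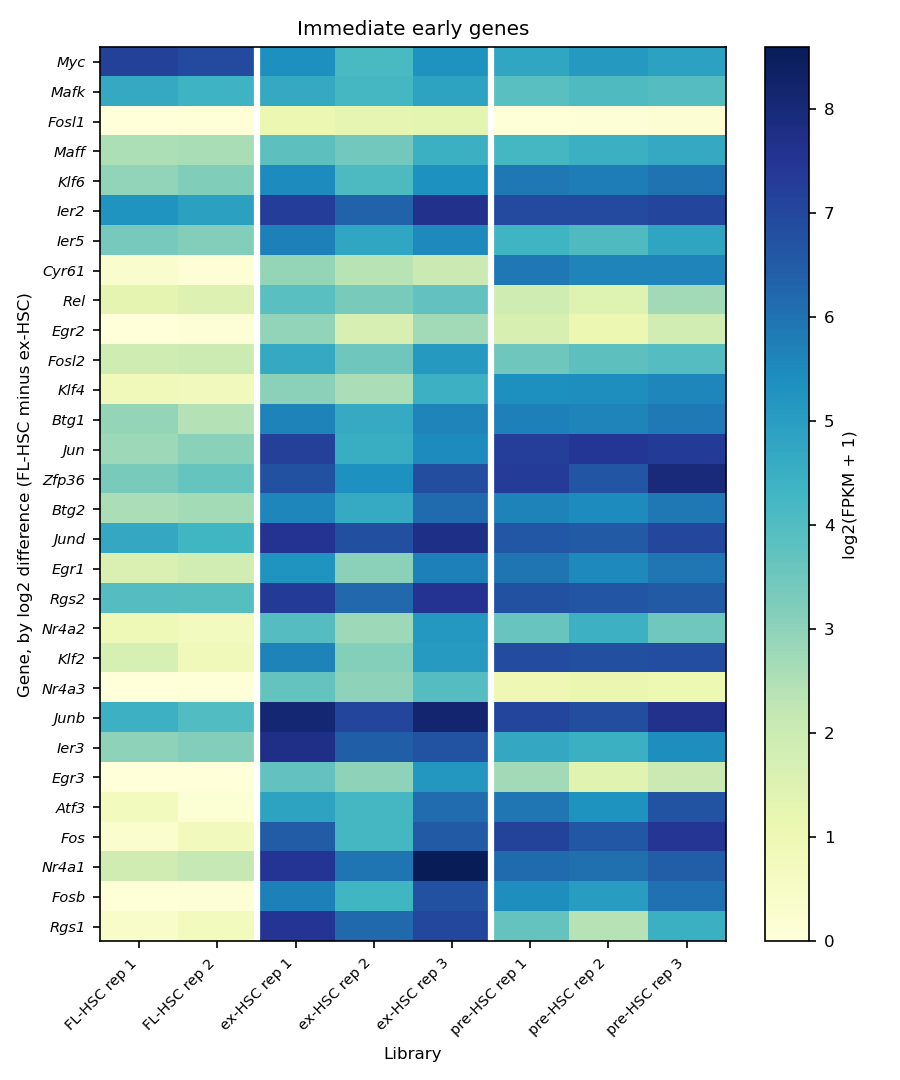
Immediate early genes in each library, as log2(FPKM + 1) in colour, with FL-HSC libraries on the left, ex-HSC in the middle and pre-HSC on the right. Rows are the 30 tested members ordered by their log2 difference. Each of the 28 lower genes is paler in both FL-HSC columns than in any ex-HSC column, and Myc at the top is the gene that was higher there.

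Among genes of the NF-kB pathway, which relays inflammatory stimuli, more were lower in FL-HSC than higher. Of 30 Toll and NF-kB genes, 15 were lower and 2 higher, with a median of -0.73 (0.31 over all genes). The lower ones include the pathway's inhibitors Tnfaip3 and Nfkbia. Nfkbiz, a nuclear regulator of the pathway, was at 0.968 and 1.71 FPKM in FL-HSC, against 37.5, 18.6 and 40 FPKM in ex-HSC (log2 difference -3.77 ± 0.38, adjusted p = 2.16e-05). Tnfaip3, the deubiquitinase A20, was at 1.6 and 1.58 FPKM in FL-HSC, against 46.6, 20.7 and 41.1 FPKM in ex-HSC (log2 difference -3.76 ± 0.41, adjusted p = 3.5e-05), and Nfkbia, which holds NF-kB in the cytoplasm, was at 12.5 and 13.2 FPKM in FL-HSC, against 147, 118 and 152 FPKM in ex-HSC (log2 difference -3.33 ± 0.27, adjusted p = 4e-06). Relb, a subunit, was at 3.22 and 3.63 FPKM in FL-HSC, against 36.3, 34.4 and 24.9 FPKM in ex-HSC (log2 difference -2.88 ± 0.27, adjusted p = 1.22e-05). No library of the groups overlapped in these 4 genes, as in 57.7% of all tested genes. Without either FL-HSC library 1 gene was higher, as Ikbkg, a kinase subunit, lost its call without replicate 1 and Irak3, which blocks Toll receptor kinases, lost it without replicate 2.

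Receptors of interleukins and growth factors, those of the cytokines in the medium among them, were more often lower in FL-HSC than higher. Of 43 interleukin and growth factor receptors, 8 were higher in FL-HSC and 18 lower, with a median of -0.34, and the higher count was 5 without FL-HSC replicate 2. The higher share was below the 27.1% of all tested genes, and the lower share was above their 10.2%. Besides Epor and Csf3r, described above, Igf1r was higher, the receptor of insulin-like growth factors, at 24 and 25.9 FPKM in FL-HSC, against 4.07, 2.81 and 4.03 FPKM in ex-HSC (log2 difference 2.50 ± 0.23, adjusted p = 1.11e-05). The common beta chain Csf2rb was lower, at 16.7 and 11.3 FPKM in FL-HSC, against 236, 85.5 and 106 FPKM in ex-HSC (log2 difference -3.14 ± 0.40, adjusted p = 0.000134), and so was its IL-3-specific copy Csf2rb2, at 4.37 and 4.24 FPKM in FL-HSC, against 191, 59.3 and 79.5 FPKM in ex-HSC (log2 difference -4.20 ± 0.40, adjusted p = 1.43e-05), both uncertain because they share sequence. Flt3, the receptor of Flt3L, was lower at 16.8 and 23.3 FPKM in FL-HSC, against 77.9, 54.7 and 84.8 FPKM in ex-HSC (adjusted p = 0.000264). Il3ra, the alpha chain of the IL-3 receptor, overlapped at 14.8 and 15.4 FPKM in FL-HSC and 21.5, 12.9 and 18.8 FPKM in ex-HSC (adjusted p = 0.578). It passed as lower after rescaling (adjusted p = 0.0168), and Kit, described above, did not pass. Of the 5 largest decreases of the list, 3 were receptors of the IL-1 family. Il1rl1, the IL-33 receptor, was at 3.06 and 2.03 FPKM in FL-HSC, against 109, 42.1 and 56.5 FPKM in ex-HSC (log2 difference -4.21 ± 0.51, adjusted p = 8.87e-05). Il1r1, the signalling receptor of IL-1, was at 0.43 and 0.286 FPKM in FL-HSC, against 10.9, 9.47 and 14.7 FPKM in ex-HSC (log2 difference -3.21 ± 0.24, adjusted p = 2.69e-06), and its decoy Il1r2 was at 0 and 1.31 FPKM in FL-HSC, against 59.7, 88.5 and 112 FPKM in ex-HSC (log2 difference -5.81 ± 0.35, adjusted p = 4.48e-07).

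Cytokines themselves were more often lower than higher in the fetal liver cells, by a margin that depended on the filter. Of 30 tested ligands of 38, 17 were lower and 2 higher, with a median of -1.23. Without the filter 13 of 38 were lower and 2 higher, with a median of -0.2. With a filter of 5 FPKM 8 of 18 were lower and 2 higher, with a median of -0.46. Il1b, Il13 and Csf2, below, passed the filter through ex-HSC alone and so could not come out higher. Il1b was at 0.417 and 0 FPKM in FL-HSC, against 41.9, 21.2 and 39.5 FPKM in ex-HSC (log2 difference -4.83 ± 0.63, adjusted p = 0.000148), and Tnf was at 0.885 and 0.695 FPKM in FL-HSC, against 16.1, 10.6 and 22.1 FPKM in ex-HSC (log2 difference -3.21 ± 0.51, adjusted p = 0.000603). Il13 was listed at 0 and 0 in FL-HSC, against 20.5, 6.84 and 3.61 FPKM in ex-HSC, and Csf2, the gene of GM-CSF, at 0 and 0 against 10.6, 3.72 and 2.71 FPKM (adjusted p = 0.000788 and 0.000524). The highest values of Il13 and Csf2 were in ex-HSC replicate 1, which was also highest in mast cell genes. Angpt1, a ligand of the Tek receptor that stem cells make, was higher at 22.3 and 38.4 FPKM in FL-HSC, against 12.2, 8.29 and 14.1 FPKM in ex-HSC (log2 difference 1.3 ± 0.29, adjusted p = 0.00469) and lost its call without FL-HSC replicate 2. Vegfb, a vascular factor, lost its call without FL-HSC replicate 1, so that 1 ligand was higher without either library.

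JAK-STAT genes went both ways: the inhibitors Cish, Socs1 and Socs3 were lower, and Jak1, Jak3, Stat5a and Stat5b were higher. The higher share was below the 27.1% of all tested genes, and the lower share was above their 10.2%. Of 32 genes, 5 were higher and 8 lower, with a median of 0.07 against 0.31 over all genes, and after rescaling 13 were lower with a median of -0.28. The lower count was 5 without ex-HSC replicate 1, without ex-HSC replicate 3 or without FL-HSC replicate 1. Cish, an inhibitor induced by STAT5, was at 7.59 and 2.4 FPKM in FL-HSC, against 46.3, 25.3 and 41.4 FPKM in ex-HSC (log2 difference -2.80 ± 0.38, adjusted p = 0.000189). Socs3 was at 1.13 and 1.83 FPKM in FL-HSC, against 12.8, 5.53 and 16.1 FPKM in ex-HSC (log2 difference -2.23 ± 0.35, adjusted p = 0.000543), and Socs1 was at 3.13 and 3.98 FPKM in FL-HSC, against 22.5, 11.8 and 14.3 FPKM in ex-HSC (log2 difference -1.88 ± 0.28, adjusted p = 0.000346). Each of these inhibitors was lower in both FL-HSC libraries than in any ex-HSC library, where 57.7% of all tested genes had no overlap. Stat5a, the factor that carries the signals of IL-3, was at 51.1 and 48.3 FPKM in FL-HSC, against 16.6, 7.73 and 9.71 FPKM in ex-HSC (log2 difference 2.10 ± 0.28, adjusted p = 0.000192), and Stat5b was at 50.5 and 50.2 FPKM in FL-HSC, against 17.9, 11.1 and 14.2 FPKM in ex-HSC (log2 difference 1.76 ± 0.23, adjusted p = 0.00015). Jak3, the kinase that works with the common gamma chain, was at 54.9 and 63.7 FPKM in FL-HSC, against 23, 11.6 and 21 FPKM in ex-HSC (log2 difference 1.67 ± 0.27, adjusted p = 0.00067). Jak1, which serves many cytokine receptors, was at 68.4 and 67.1 FPKM in FL-HSC, against 37.9, 25.3 and 32.8 FPKM in ex-HSC (log2 difference 1.08 ± 0.22, adjusted p = 0.00249).

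Of 19 genes that damp the ERK pathway or report on it, 3 were higher and 8 lower, with a median of -0.55 (0.31 over all genes). Dusp5, a nuclear phosphatase of ERK, was at 9.98 and 11.1 FPKM in FL-HSC, against 109, 55.1 and 142 FPKM in ex-HSC (log2 difference -3.06 ± 0.35, adjusted p = 5.49e-05). Phlda1 was at 0.556 and 0.92 FPKM in FL-HSC, against 38.3, 17.9 and 28.7 FPKM in ex-HSC (log2 difference -4.02 ± 0.29, adjusted p = 2.04e-06). Phlda3, a p53 target that restrains Akt, was higher at 9.82 and 7.32 FPKM in FL-HSC, against 3.97, 1.28 and 2.52 FPKM in ex-HSC (log2 difference 1.47 ± 0.30, adjusted p = 0.003).

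Immune checkpoint genes are the subject of the series, whose title concerns the PD-1 ligand PD-L1. Cd274, its gene, overlapped between the groups at 5.07 and 7.02 FPKM in FL-HSC and 11.2, 4.29 and 6.82 FPKM in ex-HSC (log2 difference -0.19 ± 0.32, adjusted p = 0.674), and its sign turned without ex-HSC replicate 1 and also without FL-HSC replicate 1. Pdcd1lg2, the gene of PD-L2, was lower at 2.83 and 2.54 FPKM in FL-HSC, against 10.3, 4.51 and 6.65 FPKM in ex-HSC (log2 difference -1.08 ± 0.29, adjusted p = 0.0127), a call that was lost without FL-HSC replicate 2, and the receptor gene Pdcd1 was listed at 0 and 0 in FL-HSC, against 9.35, 6.68 and 6.02 FPKM in ex-HSC (adjusted p = 3.85e-06). Of 31 tested checkpoint and costimulatory genes of 42, 19 were lower and 3 higher, with a median of -1.08. Tnfrsf14, the receptor HVEM of the inhibitory receptor BTLA, was among the 15 largest increases, at 85.9 and 85.4 FPKM in FL-HSC, against 9.63, 3.99 and 7.05 FPKM in ex-HSC (log2 difference 3.52 ± 0.31, adjusted p = 7.49e-06). Its FL-HSC values were nearly equal and well above all ex-HSC values. Lilrb4, an inhibitory receptor of myeloid and mast cells, was at 0.262 and 0.443 FPKM in FL-HSC, against 154, 66.1 and 72.7 FPKM in ex-HSC (log2 difference -6.08 ± 0.46, adjusted p = 2.55e-06), and its close copy Gp49a was at 0.385 and 0 FPKM in FL-HSC, against 85.4, 41 and 50.8 FPKM in ex-HSC (log2 difference -5.61 ± 0.44, adjusted p = 3.11e-06). Tnfrsf9, the costimulatory receptor 4-1BB, was at 0.237 and 0 FPKM in FL-HSC, against 88.1, 40.2 and 24 FPKM in ex-HSC (log2 difference -5.34 ± 0.41, adjusted p = 2.92e-06). Havcr2, the checkpoint receptor TIM-3, was at 0.311 and 0.282 FPKM in FL-HSC, against 17.9, 11.2 and 9.84 FPKM in ex-HSC (log2 difference -3.39 ± 0.29, adjusted p = 6.78e-06).

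Chemokine genes were lower or did not pass. Of 29 tested genes of 33, 21 were lower and 0 were higher (also 0 higher at an unadjusted p under 0.05 with limma), with a median of -2.18. Ccl3 was at 0 and 0.532 FPKM in FL-HSC, against 66.2, 18.7 and 40.9 FPKM in ex-HSC (log2 difference -4.94 ± 0.61, adjusted p = 9.38e-05), and Ccl5 was at 0.938 and 0.449 FPKM in FL-HSC, against 25.4, 30.4 and 35.2 FPKM in ex-HSC (log2 difference -4.21 ± 0.26, adjusted p = 4.94e-07). Ccl6 differed between the FL-HSC libraries, at 6.33 and 0.696 FPKM in FL-HSC, against 76.8, 64.2 and 79.1 FPKM in ex-HSC (log2 difference -4.39 ± 0.53, adjusted p = 8.13e-05). Ccl1 was listed at 0 and 0 in FL-HSC, against 38.7, 28.9 and 16.5 FPKM in ex-HSC (adjusted p = 8.14e-07). Cxcr4, the receptor that holds stem cells in their niche, did not pass at 26.5 and 27.3 FPKM in FL-HSC and 72.1, 35.9 and 34.7 FPKM in ex-HSC (log2 difference -0.72, adjusted p = 0.111).

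Adhesion genes were 7 higher and 16 lower of 38 tested, with a median of -0.41. The higher share was below the 27.1% of all tested genes, and the lower share was above their 10.2%. Lgals3, galectin-3, was at 18.6 and 3.69 FPKM in FL-HSC, against 178, 116 and 124 FPKM in ex-HSC (log2 difference -3.85 ± 0.45, adjusted p = 6.34e-05). Itgb7, an integrin chain of lymphocytes and mast cells, was at 4.23 and 3.78 FPKM in FL-HSC, against 81, 46.3 and 65.5 FPKM in ex-HSC (log2 difference -3.67 ± 0.26, adjusted p = 1.67e-06), and Emb, the adhesion protein embigin, was at 27.2 and 36.6 FPKM in FL-HSC, against 197, 151 and 229 FPKM in ex-HSC (log2 difference -2.55 ± 0.24, adjusted p = 1.25e-05). Higher instead were Itga4, the integrin chain that binds VCAM-1, at 24.8 and 35.1 FPKM in FL-HSC, against 9.29, 7.07 and 9.69 FPKM in ex-HSC (log2 difference 1.67 ± 0.24, adjusted p = 0.000327), and Gpr56, an adhesion receptor of stem cells, at 336 and 326 FPKM in FL-HSC, against 111, 41.4 and 98.6 FPKM in ex-HSC (log2 difference 2.09 ± 0.35, adjusted p = 0.000815). Among Ly6 and SLAM genes, 3 were higher and 6 lower of 9, 1 higher and 6 lower after rescaling, with 1 higher without ex-HSC replicate 2 or without FL-HSC replicate 1. Besides Slamf1 and Ly6a, Cd244, a SLAM receptor of mast and killer cells, was at 0.764 and 0.379 FPKM in FL-HSC, against 20, 10.2 and 11.6 FPKM in ex-HSC (log2 difference -3.20 ± 0.29, adjusted p = 1.06e-05). Cd48, another SLAM gene, was higher at 35.9 and 16.6 FPKM in FL-HSC, against 13.8, 7.1 and 13.1 FPKM in ex-HSC (adjusted p = 0.046). Its call was lost after rescaling (adjusted p = 0.137) and without ex-HSC replicate 2.

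Genes of antigen presentation and of the interferon response were lower or did not pass. With limma, 0 members of the class II, class I and interferon lists were higher, and at an unadjusted p under 0.05 there were 0, 1 and 1. Of 9 class II genes 7 were lower, with a median of -1.39, and 4 were without FL-HSC replicate 2. Cd74, the invariant chain, was at 15.5 and 3.08 FPKM in FL-HSC, against 120.4, 97.3 and 154 FPKM in ex-HSC (log2 difference -3.90 ± 0.51, adjusted p = 0.00014), with replicate 1 above replicate 2 in FL-HSC, as in the macrophage genes. Of 19 class I and processing genes 5 were lower and 2 were without FL-HSC replicate 1. B2m, the light chain of all class I molecules, was at 359 and 338 FPKM in FL-HSC, against 1235, 675 and 933 FPKM in ex-HSC (log2 difference -1.40 ± 0.29, adjusted p = 0.00319). Interferon response genes gave 13 lower of 50, with a median of -0.59, and 24 lower after rescaling, but 7 lower without FL-HSC replicate 2. Ifitm1 was the most abundant of those that were lower, at 344 and 345 FPKM in FL-HSC, against 1779, 1220.0 and 1561 FPKM in ex-HSC (log2 difference -2.12 ± 0.22, adjusted p = 2.88e-05). Cxcl10 was at 0.312 and 0.193 FPKM in FL-HSC, against 27.3, 15.8 and 14.2 FPKM in ex-HSC (log2 difference -3.95 ± 0.47, adjusted p = 7.18e-05). Ifitm3, a related antiviral membrane protein, did not pass at 231 and 224 FPKM in FL-HSC and 406, 237 and 386 FPKM in ex-HSC (adjusted p = 0.203).

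**Figure D5:**
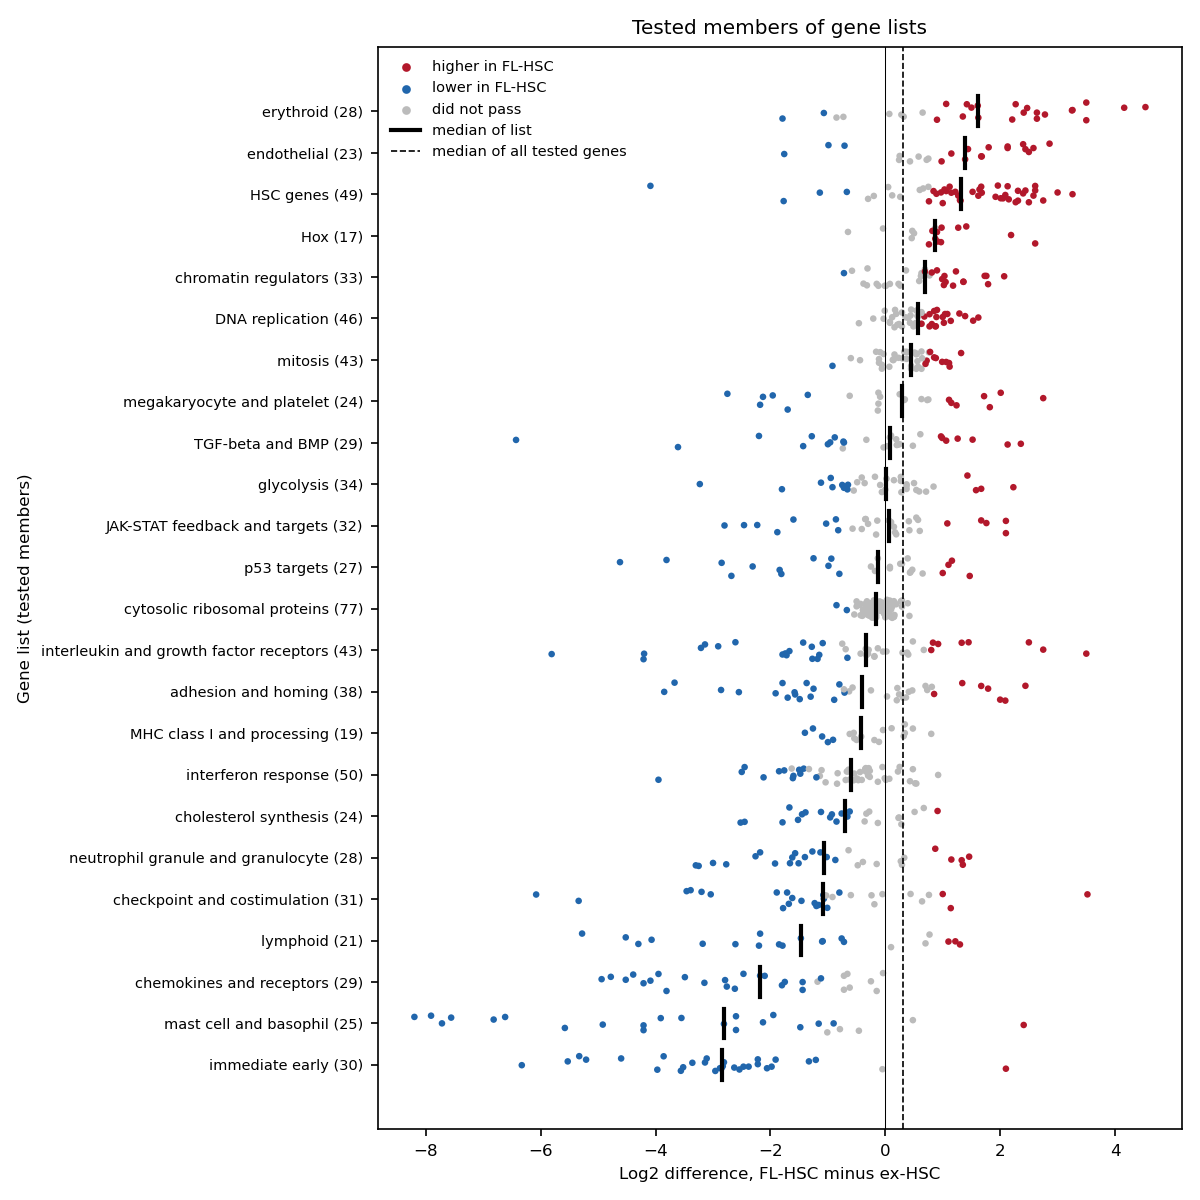
Log2 differences, FL-HSC minus ex-HSC, of the tested members of 24 gene lists (1 point per gene), with the median of each list as a bar and the median of all tested genes, 0.31, as a dashed line. Immediate early, mast cell and chemokine members lie furthest to the left, and erythroid and stem cell members lie mostly to the right.

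Several genes shared by vessels and stem cells were higher in the fetal liver cells. Of 23 tested endothelial genes of 32, 14 were higher and 3 lower, with a median of 1.39. The lower count was 1 without ex-HSC replicate 1, without ex-HSC replicate 3 or without FL-HSC replicate 2. Sox18 was at 16.6 and 17.8 FPKM in FL-HSC, against 2.62, 0.565 and 1.78 FPKM in ex-HSC (log2 difference 2.86 ± 0.30, adjusted p = 3.05e-05), Robo4 at 12.9 and 13.5 FPKM in FL-HSC, against 1.78, 0.719 and 1.78 FPKM in ex-HSC (log2 difference 2.58 ± 0.25, adjusted p = 1.65e-05), and the angiopoietin receptor Tek at 9.4 and 15.5 FPKM in FL-HSC, against 2.02, 0.615 and 2.13 FPKM in ex-HSC (log2 difference 2.40 ± 0.31, adjusted p = 0.000141). The first is a factor of vessel growth and the second a guidance receptor of endothelium. Flt1, a VEGF receptor, was lower at 0.547 and 0.408 FPKM in FL-HSC, against 5.31, 3.14 and 3.79 FPKM in ex-HSC (log2 difference -1.76 ± 0.25, adjusted p = 0.000254). In pre-HSC the summed endothelial genes were at 5553 to 6101 FPKM, against 646 and 709 FPKM in FL-HSC and 216 to 419 FPKM in ex-HSC. Arterial and Notch pathway genes, taken as 1 list, were 8 lower and 1 higher of 21 tested, with a median of -0.33. Without FL-HSC replicate 1 the median was also -0.33. The higher count was 0 without FL-HSC replicate 2 and 2 without ex-HSC replicate 1 or replicate 3. Of the targets, Hes1 was at 2.42 and 1.04 FPKM in FL-HSC, against 27, 15.2 and 40 FPKM in ex-HSC (log2 difference -3.33 ± 0.37, adjusted p = 4.68e-05) and Hey1 at 0.899 and 0.0973 FPKM in FL-HSC, against 3.67, 2.09 and 4.84 FPKM in ex-HSC (log2 difference -1.60 ± 0.32, adjusted p = 0.00243). Jag2, a ligand, was at 6.68 and 7.5 FPKM in FL-HSC, against 18.9, 11.3 and 21.9 FPKM in ex-HSC (log2 difference -1.14 ± 0.28, adjusted p = 0.00834).

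Matrix genes were followed as markers of stromal cells such as the OP9 line, and the fibrillar collagens were low in all 5 libraries. Of 27 tested stromal genes of 33, 13 were lower in FL-HSC and 4 higher, with a median of -0.92. Without ex-HSC replicate 1 or without ex-HSC replicate 2 only 22 passed the filter, and 7 of them were lower. These counts are therefore not over the same genes. Without FL-HSC replicate 2 the median was -0.56 over 27 genes. Col3a1, a fibrillar collagen and defining stromal gene, was at 0.211 and 0.00726 FPKM in FL-HSC, against 5.04, 4.76 and 1.68 FPKM in ex-HSC (log2 difference -2.04 ± 0.39, adjusted p = 0.00191). Col1a1, the main collagen of fibroblasts, was at 0.255 and 1.34 FPKM in FL-HSC and 4.5, 2.55 and 1.64 FPKM in ex-HSC and did not pass (adjusted p = 0.052), though it passed as lower without ex-HSC replicate 3 or without FL-HSC replicate 2. Col1a1 and Vim were named after their values were seen. Mgp, a matrix protein of fibroblasts, was listed at 0 and 0 in FL-HSC, against 3.95, 4.37 and 2.95 FPKM in ex-HSC (adjusted p = 0.000117). Higher instead were the basement membrane collagens Col4a1, at 22.9 and 29.5 FPKM in FL-HSC, against 12.4, 5.41 and 11.4 FPKM in ex-HSC (log2 difference 1.40 ± 0.29, adjusted p = 0.00333), and Col4a2, at 22.8 and 28.3 FPKM in FL-HSC, against 10.6, 3.71 and 9.92 FPKM in ex-HSC (log2 difference 1.65 ± 0.33, adjusted p = 0.00274). The list summed to 449.7 and 532 FPKM in FL-HSC, 677 to 867 FPKM in ex-HSC and 3792 to 3909 FPKM in pre-HSC, and its most abundant member in FL-HSC and ex-HSC was Vim, the gene of the filament protein vimentin that blood cells express too, at 295 and 235 FPKM in FL-HSC and 572, 482 and 606 FPKM in ex-HSC. Of the adipocyte genes that OP9 cells can switch on, 0 of 6 tested were called by limma, also 0 at an unadjusted p under 0.05, and the whole list of 12 summed to 58.2 and 95.2 FPKM in FL-HSC and 64.9 to 91.7 FPKM in ex-HSC. The part of OP9 RNA in the ex-HSC libraries was not tested.

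TGF-beta and BMP genes went both ways, with a higher share below the 27.1% of all tested genes and a lower share above their 10.2%. Of 29 genes 7 were higher and 10 lower, with a median of 0.08 (0.31 over all genes) that was -0.26 after rescaling, and leaving out FL-HSC replicate 1 gave 5 lower and leaving out replicate 2 gave 6 lower. The coreceptors Tgfbr3, at 17.3 and 19 FPKM in FL-HSC, against 3.91, 1.33 and 3.49 FPKM in ex-HSC (log2 difference 2.36 ± 0.31, adjusted p = 0.000166), and Eng, at 66.8 and 58.4 FPKM in FL-HSC, against 20.7, 6.47 and 17.6 FPKM in ex-HSC (log2 difference 2.13 ± 0.36, adjusted p = 0.000878), were higher. Skil, a repressor of the pathway that it induces, was at 1.35 and 1.47 FPKM in FL-HSC, against 30.7, 23.6 and 31.2 FPKM in ex-HSC (log2 difference -3.61 ± 0.22, adjusted p = 4.42e-07), and Id2 was at 15.1 and 6 FPKM in FL-HSC, against 59.2, 38 and 48.6 FPKM in ex-HSC (log2 difference -2.20 ± 0.32, adjusted p = 0.000346).

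Genes of DNA synthesis were higher in the fetal liver cells or did not pass. Of 46 replication genes, 19 were higher and 0 were lower with limma (also 0 at an unadjusted p under 0.05), with a median of 0.57 (0.31 over all genes), and after rescaling 16 were higher and 2 lower, with a median of 0.21. Without FL-HSC replicate 1 the higher count was 9. Pold2, a subunit of DNA polymerase delta, was at 334 and 279 FPKM in FL-HSC, against 101, 79.5 and 119 FPKM in ex-HSC (log2 difference 1.62 ± 0.22, adjusted p = 0.000167), and Pold1, its catalytic subunit, was at 114 and 106 FPKM in FL-HSC, against 44, 26.1 and 45.8 FPKM in ex-HSC (log2 difference 1.53 ± 0.25, adjusted p = 0.000672). Lig1, which joins the fragments of the lagging strand, was at 203 and 152 FPKM in FL-HSC, against 65.1, 53.1 and 85.4 FPKM in ex-HSC (log2 difference 1.39 ± 0.23, adjusted p = 0.000832). The helicase subunit Mcm5 did not pass at 243 and 169 FPKM in FL-HSC and 139, 105 and 156 FPKM in ex-HSC (log2 difference 0.63, adjusted p = 0.0508), and passed as higher without ex-HSC replicate 3 and also without FL-HSC replicate 2. Mitosis genes gave 10 higher and 1 lower of 43, 7 higher and 6 lower after rescaling, and 2 higher and 0 lower without FL-HSC replicate 1. The share of mitosis genes that were higher, 23.3%, was close to the 27.1% of all tested genes. Kif2c, a microtubule-shortening motor, was at 27 and 24.5 FPKM in FL-HSC, against 14.5, 8.4 and 12.1 FPKM in ex-HSC (log2 difference 1.11 ± 0.24, adjusted p = 0.004).

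Targets of p53 and genes of cell death and of cell cycle entry went both ways. In each of these lists the higher share was below the 27.1% of all tested genes, and the lower share was above their 10.2%. Cdkn1a, which encodes the cell cycle inhibitor p21 and is the best known target of p53, was at 6.07 and 2.49 FPKM in FL-HSC, against 141, 97.3 and 131 FPKM in ex-HSC (log2 difference -4.62 ± 0.40, adjusted p = 7.12e-06). Of 27 p53 targets, 11 were lower and 4 higher, with a median of -0.13 against 0.31 over all genes. Pmaip1, the death-promoting protein Noxa, was at 0.55 and 0.758 FPKM in FL-HSC, against 26.6, 20.3 and 20.3 FPKM in ex-HSC (log2 difference -3.81 ± 0.32, adjusted p = 5.82e-06). Gadd45a, a DNA damage gene, was at 6.5 and 6.69 FPKM in FL-HSC, against 59.2, 23.9 and 34.5 FPKM in ex-HSC (log2 difference -2.31 ± 0.32, adjusted p = 0.000249), and Plk2 was at 1.6 and 2.09 FPKM in FL-HSC, against 25.4, 6.96 and 27.4 FPKM in ex-HSC (log2 difference -2.68 ± 0.43, adjusted p = 0.000653). The groups did not overlap in any of these 4 genes, as in 57.7% of all tested genes. Of 14 Bcl2 family genes 6 were lower and 1 higher, with a median of -0.26, and both directions held activators of cell death. Bmf was at 0.57 and 0.5 FPKM in FL-HSC, against 15, 13.5 and 9.32 FPKM in ex-HSC (log2 difference -3.12 ± 0.24, adjusted p = 3.11e-06) and Bcl2l11, the gene of Bim, was at 6.56 and 4.02 FPKM in FL-HSC, against 43.8, 27 and 34.1 FPKM in ex-HSC (log2 difference -2.52 ± 0.26, adjusted p = 2.49e-05), both activators of cell death. Mcl1, a survival gene, was lower too, at 58 and 60.3 FPKM in FL-HSC, against 116, 76.5 and 131 FPKM in ex-HSC (log2 difference -0.82 ± 0.26, adjusted p = 0.0255), a call lost when either FL-HSC library, ex-HSC replicate 1 or ex-HSC replicate 3 was left out, and so was the survival gene Bcl2a1b, which has close copies (log2 difference -3.51 ± 0.61, adjusted p = 0.0011). The higher gene was Bok, an activator of cell death, at 11.6 and 9.4 FPKM in FL-HSC, against 3.3, 2.82 and 4.06 FPKM in ex-HSC (log2 difference 1.39 ± 0.23, adjusted p = 0.000653). Of 13 G1 cyclins and inhibitors 3 were higher and 2 lower. Cdkn1c, the inhibitor p57 of quiescent stem cells, was higher at 37.2 and 35.1 FPKM in FL-HSC, against 14.9, 13.7 and 16.6 FPKM in ex-HSC (log2 difference 1.22 ± 0.19, adjusted p = 0.000585), as was Cdk6 at 18.3 and 17.6 FPKM in FL-HSC, against 8.53, 4.6 and 6.65 FPKM in ex-HSC (log2 difference 1.36 ± 0.26, adjusted p = 0.002). Rb1 was lower at 1.1 and 0.264 FPKM in FL-HSC, against 8.89, 5.14 and 4.87 FPKM in ex-HSC (log2 difference -2.12 ± 0.30, adjusted p = 0.000285).

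Cholesterol synthesis genes were mostly lower in the fetal liver cells. Of 24 genes 14 were lower and 1 higher, with a median of -0.71, and the lower count was 9 without either FL-HSC library. Cyp51, a demethylase of the pathway, was at 7.77 and 8.86 FPKM in FL-HSC, against 61, 44.6 and 52.7 FPKM in ex-HSC (log2 difference -2.52 ± 0.22, adjusted p = 8.08e-06), and Sc4mol, the oxidase that follows it, was at 7.67 and 9.73 FPKM in FL-HSC, against 62.6, 45.7 and 47.9 FPKM in ex-HSC (log2 difference -2.45 ± 0.23, adjusted p = 1.11e-05). Idi1, the isomerase of the early pathway, was at 8.2 and 14.9 FPKM in FL-HSC, against 43.5, 39.4 and 30.8 FPKM in ex-HSC (log2 difference -1.67 ± 0.27, adjusted p = 0.000613). Each was lower in both fetal liver libraries than in any cultured one, where 57.7% of all tested genes had no overlap. Promoters were found for 8 of the 14 lower genes, and all 8 held CCAAT, the letters bound by NF-Y, on one of the strands, or 100.0% against 35.4% over all tested genes. TCACNCCAC, a form of the sterol element, was in 0 of the 8 and in 0.972% of all. The last 120 bases before the start of 4 of these genes are shown with CCAAT or its reverse ATTGG in capitals, because the motif was shared by all promoters found. Mvk encodes mevalonate kinase and Nsdhl a later dehydrogenase.
Cyp51 (chr5:4104698-4104817, minus strand): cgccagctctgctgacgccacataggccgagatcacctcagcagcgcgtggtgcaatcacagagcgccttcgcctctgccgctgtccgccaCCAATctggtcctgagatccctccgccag
Idi1 (chr13:8885486-8885605, plus strand): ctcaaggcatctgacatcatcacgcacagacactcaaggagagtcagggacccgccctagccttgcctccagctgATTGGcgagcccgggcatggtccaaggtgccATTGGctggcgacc
Mvk (chr5:114444149-114444268, plus strand): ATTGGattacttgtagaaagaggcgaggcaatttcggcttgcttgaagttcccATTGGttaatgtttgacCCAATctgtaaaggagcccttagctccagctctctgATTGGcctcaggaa
Nsdhl (chrX:72918401-72918520, plus strand): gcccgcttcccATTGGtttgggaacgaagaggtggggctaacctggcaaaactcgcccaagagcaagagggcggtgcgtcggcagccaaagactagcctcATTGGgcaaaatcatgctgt
These matches are letters in a window. The 4 genes were picked for their promoters after the values of Mvk and Nsdhl were seen. Mvk was at 14.3 and 10.9 FPKM in FL-HSC, against 24.2, 16.5 and 21 FPKM in ex-HSC (log2 difference -0.66 ± 0.24, adjusted p = 0.048), and Nsdhl was at 9.09 and 10.3 FPKM in FL-HSC, against 19.8, 14.5 and 17.3 FPKM in ex-HSC (log2 difference -0.76 ± 0.22, adjusted p = 0.0177). Both lost their calls without FL-HSC replicate 1 or without replicate 2, and Mvk also without ex-HSC replicate 1 or without replicate 3.

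Genes of the glycolysis list, which does not hold enzymes of sugar breakdown alone, went both ways. Of 34 glycolysis genes 4 were higher and 9 lower, with a median of 0.01 (0.31 over all genes) that was -0.30 after rescaling, where 15 were lower. The lower count was 5 without ex-HSC replicate 1 and 3 without FL-HSC replicate 2. Hk1, which traps glucose in the cell, was at 196 and 172 FPKM in FL-HSC, against 51.9, 26.2 and 41 FPKM in ex-HSC (log2 difference 2.23 ± 0.26, adjusted p = 6.18e-05), and Pfkl, a phosphofructokinase of liver and red cells, was at 188 and 148 FPKM in FL-HSC, against 70.3, 47.8 and 67.9 FPKM in ex-HSC (log2 difference 1.43 ± 0.23, adjusted p = 0.000554). The largest decreases of the list were of Ero1l and Egln3, which are not enzymes of sugar breakdown. Ero1l, an oxidase of protein folding, was at 11.3 and 13.9 FPKM in FL-HSC, against 198, 86.2 and 116 FPKM in ex-HSC (log2 difference -3.23 ± 0.30, adjusted p = 1.17e-05), and Egln3, an oxygen sensor, was at 10.8 and 9.73 FPKM in FL-HSC, against 43.1, 23 and 55.6 FPKM in ex-HSC (log2 difference -1.80 ± 0.32, adjusted p = 0.00133).

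Stress genes under ATF4, the factor of amino acid shortage, gave 14 lower and 1 higher of 39, with a median of -0.07 (0.31 over all genes). The higher count was 6 without ex-HSC replicate 1 and 0 without FL-HSC replicate 1. Chac1, which degrades glutathione, was at 0.428 and 2.62 FPKM in FL-HSC, against 28.1, 31.4 and 19.9 FPKM in ex-HSC (log2 difference -3.57 ± 0.37, adjusted p = 2.47e-05). Trib3, a pseudokinase, was at 1.89 and 5.4 FPKM in FL-HSC, against 46.6, 39.5 and 19.1 FPKM in ex-HSC (log2 difference -2.98 ± 0.41, adjusted p = 0.000233), and Ddit4, an inhibitor of the growth kinase mTOR, was at 8.25 and 6.73 FPKM in FL-HSC, against 64.1, 45.8 and 36.8 FPKM in ex-HSC (log2 difference -2.52 ± 0.25, adjusted p = 1.65e-05). Of the NRF2 antioxidant genes, 7 were lower and 3 higher of 26, with a median of 0.07 (0.31 over all genes) that was -0.27 after rescaling, where 11 were lower and 2 higher. There were 4 lower without ex-HSC replicate 1 and 1 higher without FL-HSC replicate 1. Srxn1, which repairs peroxiredoxins, was at 3.66 and 3.43 FPKM in FL-HSC, against 29.7, 17.8 and 19.8 FPKM in ex-HSC (log2 difference -2.33 ± 0.27, adjusted p = 6.18e-05). Gsta4, a glutathione transferase, was higher at 23.3 and 11.1 FPKM in FL-HSC, against 1.77, 1.97 and 3.06 FPKM in ex-HSC (log2 difference 2.41 ± 0.31, adjusted p = 0.000124).

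The eicosanoid and histamine list gave 9 lower and 1 higher of 19, with a median of -1.01. Alox5, which starts leukotriene synthesis, was at 1.36 and 1.41 FPKM in FL-HSC, against 79.8, 33.3 and 49.9 FPKM in ex-HSC (log2 difference -4.45 ± 0.35, adjusted p = 3.11e-06), and Hpgds, the prostaglandin D synthase of mast cells, was at 1.08 and 2.38 FPKM in FL-HSC, against 18.4, 13.6 and 13.7 FPKM in ex-HSC (log2 difference -2.60 ± 0.34, adjusted p = 0.000156). Tbxas1, the thromboxane synthase, was higher at 23.6 and 29.6 FPKM in FL-HSC, against 9.75, 4.43 and 8.1 FPKM in ex-HSC (log2 difference 1.76 ± 0.35, adjusted p = 0.00233). Cyp11a1, the enzyme that opens steroid synthesis, was outside the list and among the 15 largest decreases, at 1.4 and 0.831 FPKM in FL-HSC, against 215, 82.9 and 105 FPKM in ex-HSC (log2 difference -5.89 ± 0.35, adjusted p = 4.22e-07).

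Ribosomal protein genes depended on the scaling more than any other list by their count of lower genes. Of 77 such genes 0 were higher and 2 lower in FL-HSC on the FPKM as deposited, with a median of -0.16, and 35 were lower after rescaling, with a median of -0.52. The lower count was 4 without ex-HSC replicate 2, 5 without FL-HSC replicate 1, 0 without FL-HSC replicate 2 and 1 without ex-HSC replicate 1 or replicate 3. Respiratory chain genes gave 2 higher and 5 lower of 55, and 1 higher and 13 lower after rescaling. Their lower count was 0 without ex-HSC replicate 1, without ex-HSC replicate 3 or without FL-HSC replicate 2, and the higher count was 1 without ex-HSC replicate 1, without ex-HSC replicate 2 or without FL-HSC replicate 1. Sdha, a subunit of succinate dehydrogenase, was the higher gene with the largest difference, at 311 and 355 FPKM in FL-HSC, against 188, 114 and 165 FPKM in ex-HSC (log2 difference 1.12 ± 0.23, adjusted p = 0.00266).

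Hox genes and chromatin regulators, which hold the identity of blood progenitors, were higher or did not pass in most cases. Of 39 Hox genes and genes of their partners 17 were tested, 11 were higher and 0 were lower (1 at an unadjusted p under 0.05 with limma), with a median of 0.87, and 7 higher without ex-HSC replicate 2 and 3 higher without FL-HSC replicate 2. Without the filter 38 of the Hox and partner genes were tested, 6 were higher and 0 lower, and the median was 0.1. Hoxa3 was at 6.32 and 9.7 FPKM in FL-HSC, against 1.31, 0.516 and 1.07 FPKM in ex-HSC (log2 difference 2.19 ± 0.28, adjusted p = 0.000118), and Hoxa10 was at 10.3 and 12.7 FPKM in FL-HSC, against 5.71, 2.57 and 4.68 FPKM in ex-HSC (log2 difference 1.27 ± 0.29, adjusted p = 0.00569). Of 33 chromatin regulators, 15 were higher and 1 lower, with a median of 0.69, and after rescaling 13 were higher and 5 lower. Without FL-HSC replicate 2 or ex-HSC replicate 2 the lower count was 2, and it was 0 without any other library. Cbx6, a Polycomb reader, was at 40.6 and 50.6 FPKM in FL-HSC, against 14, 7.14 and 10.1 FPKM in ex-HSC (log2 difference 2.07 ± 0.28, adjusted p = 0.000179). Kmt2a, the methyltransferase MLL1 that keeps Hox genes active, was at 9.41 and 12.7 FPKM in FL-HSC, against 3.57, 1.56 and 2.53 FPKM in ex-HSC (log2 difference 1.79 ± 0.29, adjusted p = 0.000644). Imprinted genes, which are read from the copy of one parent, were 7 higher and 3 lower of 21, and 7 higher and 6 lower after rescaling. Grb10, a brake on growth factor receptors, was among the 15 largest increases, at 122 and 142 FPKM in FL-HSC, against 17.9, 8.02 and 12.1 FPKM in ex-HSC (log2 difference 3.34 ± 0.28, adjusted p = 4.9e-06). Ndn, the gene of necdin, was at 22.2 and 23.6 FPKM in FL-HSC, against 7.86, 3.99 and 8.63 FPKM in ex-HSC (log2 difference 1.67 ± 0.27, adjusted p = 0.000722).

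Platelet genes went both ways, 7 higher and 6 lower of 24 tested, with a median of 0.29 close to that of all genes. Over all tested genes 27.1% were higher and 10.2% lower. The lower share of platelet genes, unlike the higher one, was thus well above that of all genes. Treml1, a receptor stored in platelet granules, was at 11.8 and 8.06 FPKM in FL-HSC, against 1.32, 2.46 and 1.36 FPKM in ex-HSC (log2 difference 2.01 ± 0.28, adjusted p = 0.000216), and Gp5, a subunit of the receptor of von Willebrand factor, was at 8.52 and 4.57 FPKM in FL-HSC, against 0.691, 1.52 and 1.06 FPKM in ex-HSC (log2 difference 1.82 ± 0.28, adjusted p = 0.000491). Plek, a substrate of protein kinase C in platelets and leukocytes, was at 12.1 and 8.09 FPKM in FL-HSC, against 85.6, 66.3 and 67.2 FPKM in ex-HSC (log2 difference -2.75 ± 0.35, adjusted p = 0.000113). Itgb3, the integrin chain of the fibrinogen receptor, which mast cells express too, was at 5.36 and 3.46 FPKM in FL-HSC, against 22.8, 11.5 and 16.5 FPKM in ex-HSC (log2 difference -1.70 ± 0.29, adjusted p = 0.000975). Ppbp, a chemokine stored in platelets, was lower at 1.14 and 1.6 FPKM in FL-HSC, against 6.31, 12.1 and 11.9 FPKM in ex-HSC (log2 difference -2.18 ± 0.29, adjusted p = 0.000179). Pf4, another such chemokine, did not pass at 114 and 35.5 FPKM in FL-HSC and 114, 112 and 75.4 FPKM in ex-HSC (adjusted p = 0.361), and its sign turned without FL-HSC replicate 2.

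Lysosome and granule genes gave 9 lower and 2 higher of 28, and 5 lower without FL-HSC replicate 2. Srgn, the proteoglycan that packs granule proteases, was at 421 and 422 FPKM in FL-HSC, against 2346, 1183 and 1558 FPKM in ex-HSC (log2 difference -1.95 ± 0.29, adjusted p = 0.000349). Cd63, a tetraspanin of granule membranes, was at 156 and 127 FPKM in FL-HSC, against 599, 296 and 346 FPKM in ex-HSC (log2 difference -1.48 ± 0.31, adjusted p = 0.00354). Of 16 fatty acid synthesis genes 2 were higher and 3 lower, with 0 lower without FL-HSC replicate 1, and the median turned from positive to negative with the rescaling, 0.18 as deposited and -0.13 after it. Acss2, which makes acetyl-CoA from acetate, was at 24.7 and 22.4 FPKM in FL-HSC, against 4.37, 3.86 and 4.25 FPKM in ex-HSC (log2 difference 2.25 ± 0.22, adjusted p = 1.83e-05). Of 9 genes of the fetal program, 1 was higher and 0 were lower with limma, and after rescaling 2 were lower, while without ex-HSC replicate 3 there were 3 higher. At an unadjusted p under 0.05, 1 was lower. The higher gene was Igf2bp2, an RNA-binding protein of fetal tissues, at 39.8 and 44.2 FPKM in FL-HSC, against 18.4, 11.3 and 19.2 FPKM in ex-HSC (log2 difference 1.35 ± 0.26, adjusted p = 0.00202).

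Further large increases came from genes of no list. Atp1b2, a sodium pump subunit, was at 33.6 and 36.7 FPKM in FL-HSC, against 2.21, 0.567 and 0.642 FPKM in ex-HSC (log2 difference 4.16 ± 0.34, adjusted p = 3.84e-06). Cited4, a transcriptional coactivator, was at 84.5 and 53.8 FPKM in FL-HSC, against 7.82, 2.61 and 2.83 FPKM in ex-HSC (log2 difference 3.79 ± 0.37, adjusted p = 1.63e-05), and Samd14 was at 35.6 and 22.3 FPKM in FL-HSC, against 1.55, 1.24 and 1.15 FPKM in ex-HSC (log2 difference 3.66 ± 0.26, adjusted p = 1.67e-06). Prmt3, an arginine methyltransferase of ribosomal protein, was at 30.8 and 41.2 FPKM in FL-HSC, and it was listed at 0, 21.6 and 0 FPKM in ex-HSC (adjusted p = 0.0124). As it was listed at 0 in 2 of the 3 ex-HSC libraries, and an exact 0 can be a failed estimate, no size is given for its difference, and its call was lost with median-of-ratios scaling (adjusted p = 0.064).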

How the data were processed

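RNA libraries of 2 FL-HSC and 3 ex-HSC samples were compared, and 3 pre-HSC samples shared in the estimate of the spread. The authors deposited FPKM per gene and library on the mouse build mm9, and Cufflinks, featureCounts, edgeR and DESeq are named in the submitters' processing notes without versions or roles. Per the labels' protocols, poly(A) RNA was sequenced as pairs of 75 nt reads. The number of mapped fragments is unknown from such values, so no counting interval is given, and a gene at 0 is called listed at 0. The table held 33504 genes after 27 rows whose symbols had turned into dates were left out.

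Values were tested as log2(FPKM + 1) with limma 3.58.1 in R 4.3.3: a mean per group over all 8 libraries, moderated variances with an intensity trend, and Benjamini-Hochberg adjustment over 12433 genes that reached 1 FPKM in 2 or more of the 5 libraries. The fit was tested on simulated data. Median-of-ratios scaling divided each library by the median ratio of its genes to their geometric mean, over genes above 0 in each library and averaging 1 FPKM or more. Genes were named by a rule: the PD-1 genes, sort markers, the 15 largest changes in each direction among genes whose higher group averaged 5 FPKM or more and whose libraries did not overlap, predicted and non-coding symbols left out, and for each of 49 gene lists up to 5 called genes in each direction and the 2 most abundant that did not pass. Some genes that the rule names are not reported here. The members and lists were chosen with earlier results of these data known. The labels do not say what a replicate number marks, and the libraries were not treated as paired. The correlation of deviations from the group means was -0.0415 for number 1 and -0.047 for number 2. With 2 FL-HSC libraries both values rest on 1 FL-HSC difference, so they cannot decide whether the numbers pair the libraries. Promoters came from RefSeq on GRCm38.p6 and were matched by symbol.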

Additional observations from a re-analysis of the deposited data

How the results depend on the processing

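Deposited values gave 3373 genes higher and 1264 lower. Median-of-ratios scaling gave 2524 lower and quantile normalization 2226, while rescaling after ex-HSC replicate 2 was left out gave 1957 higher and 1980 lower. A minimum log2 difference of 1 left 1804 higher. With each library left out in turn, the calls ranged from 1843 to 3424 higher and from 962 to 1511 lower. Replicate number as a block gave 3353 higher and 1203 lower, although it is not stated what the numbers mark. Flt3, Il3ra and Cd48 were named after their values were seen and are outside the following counts of named genes. Of 197 named genes that were called, 175 kept their call in each of 17 alternatives that tested them, and 0 changed sign. Testing without the filter ended 12 of these calls, the replicate block 3 and median-of-ratios scaling 1. Among the 13 named genes that did not pass, the sign turned for Cd274 without ex-HSC replicate 1 (0.12) and without FL-HSC replicate 1 (0.01), with a range of -0.48 to 0.12 over the libraries left out. It also turned for Hbb-y without FL-HSC replicate 1 (-0.85, in a range of -0.85 to 1.96) and for Pf4 without FL-HSC replicate 2 (0.21, in a range of -1.45 to 0.21). For Kit the sign turned only when leaving out ex-HSC replicate 2 was combined with median-of-ratios scaling (-0.01). The causes were not tested. Of 98 list counts, 37 stayed within 1.5 times in each alternative. Depth is unknown, with 2 FL-HSC libraries the spread within that group rests on 1 difference, and of 74 isolated zeros 42 were in FL-HSC replicate 1.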

Other observations

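The largest increase in FL-HSC was of Rps18-ps3, a copy of a ribosomal protein gene. Of 42 tested genes whose symbol marks them as a ribosomal protein pseudogene, 26 were higher in FL-HSC and 2 lower, with a median log2 difference of 1.37, and these symbols were looked at after their values were seen. Their summed level was 4716 and 3155 FPKM in FL-HSC libraries, against 1085, 649.7 and 1174 FPKM in ex-HSC libraries, and 1222 to 1803 FPKM in pre-HSC. Rps18-ps3 was at 612 and 202 FPKM in FL-HSC, against 2.19, 0.737 and 1.82 FPKM in ex-HSC (log2 difference 7.14 ± 0.54, adjusted p = 2.58e-06), whereas its parent gene Rps18 was at 2494 and 1937 FPKM in FL-HSC and 3129, 2446 and 3409.8 FPKM in ex-HSC and did not pass (log2 difference -0.43, adjusted p = 0.145). Rps3a3 was at 190.2 and 185 FPKM in FL-HSC, against 0.927, 0.727 and 2.61 FPKM in ex-HSC (log2 difference 6.36 ± 0.29, adjusted p = 7.77e-08). Each value depends on how reads that match several copies were assigned, which is not given in the sources used here, and whether that differed between the libraries was not tested.

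The predicted gene Gm10800, picked after its values were seen, was listed at 0 and 0 in FL-HSC, against 9.27, 11986 and 568 FPKM in ex-HSC, so that replicate 2 held a value far above the other libraries.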
